A study of Mus musculus with 9 samples.

Results

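Zeb1, Zeb2, Snai1, Snai2, Twist1, Sox9, Vim, Loxl2 and Nes are 9 genes of the mesenchymal and invasive state of tumour cells, and their transcript levels were followed in B16F10, a pigmented mouse melanoma line, with raised or reduced Sirpa. The genes were chosen by name, and the values of each were obtained by summing its annotated transcripts in every library, which gave 9 genes of 51717 in all. The Sirpa product is an inhibitory receptor of myeloid cells that binds CD47. The lines were a Sirpa overexpression line, a Sirpa knockdown line and a line with a non-targeting control, with 3 libraries each and 9 in all, from cells kept in serum-supplemented medium with antibiotics. The study addressed what a changed amount of this receptor does to transcript levels in the tumour cells. The labels give biological repeats, do not say whether a line is 1 clone or a pool or which vectors were used, and give 1 line per condition, so p-values cover variation among repeats only, not variation among lines made anew.

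Epithelial to mesenchymal transition (EMT) is driven by a small set of transcription factors. The zinc-finger proteins of the Snail family (Snai1, Snai2) and the Zeb family (Zeb1, Zeb2) repress epithelial genes through E-boxes, and Twist1 is a basic helix-loop-helix factor that acts on the same programme. In melanocytes and pigmented melanoma, Zeb2 and Snai2 are the forms usually expressed, whereas Zeb1 and Twist1 are known from dedifferentiated, invasive human melanoma. Sox9 is an HMG-box factor of neural crest and cartilage. Vim and Nes encode the intermediate filament proteins vimentin and nestin, and Loxl2 encodes a secreted amine oxidase that cross-links collagen.

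The estimated counts per library ranged from 16.4 to 22.38 in units of 1000000. Sirpa itself averaged 902 ± 10 CPM (counts per 1000000, with normalised library sizes) in the overexpression line, 115 ± 3 CPM in the knockdown line and 295 ± 7.4 CPM in the control line (SD, n = 3 each), in the direction of the labels. The melanocyte and melanoma markers Mlana, Pmel, Tyr, Dct, Tyrp1, Sox10 and Mitf were detected in all lines, with a summed level of 18448 to 18884 CPM in overexpression, 16500 to 17137 CPM in knockdown and 16910 to 17117 CPM in control libraries. The leucocyte markers Ptprc, Adgre1, Cd3e, Cd3d, Cd8a and Nkg7, the endothelial markers Cdh5 and Kdr, the epithelial markers Epcam, Krt8, Krt18 and Krt14, the fibroblast marker Thy1 and the glial precursor marker Foxd3 had 0 estimated counts in every library.

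Promoter windows of RefSeq (GRCm38.p6) were at hand for 5 of the 9 genes, namely Zeb2, Snai1, Twist1, Vim and Nes. Among the factor genes, Zeb2 carried nearly all the signal and Snai1 was nearly silent. The other windows, further ones of Zeb2 among them, are not printed. The 3 windows given here are those before the upstream and the middle start site of Zeb2 and that of Snai1. Each is the 250 bases before a start, written 5′ to 3′ on the strand of the gene, in lower case with any E-box (CANNTG, which reads the same on both strands) in capitals.
Zeb2 upstream start, chr2:45117443-45117692, minus strand: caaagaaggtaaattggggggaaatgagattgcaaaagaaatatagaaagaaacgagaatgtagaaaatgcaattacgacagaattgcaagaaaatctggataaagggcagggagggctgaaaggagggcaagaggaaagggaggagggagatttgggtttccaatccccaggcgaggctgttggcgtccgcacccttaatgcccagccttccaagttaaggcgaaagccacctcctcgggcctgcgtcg
Zeb2 middle start, chr2:45113280-45113529, minus strand: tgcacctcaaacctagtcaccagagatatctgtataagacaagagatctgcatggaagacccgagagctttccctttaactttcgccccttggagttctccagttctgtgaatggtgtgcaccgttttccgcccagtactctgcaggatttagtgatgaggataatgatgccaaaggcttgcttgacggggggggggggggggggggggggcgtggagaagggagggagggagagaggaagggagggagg
Snai1, chr2:167537945-167538194, plus strand: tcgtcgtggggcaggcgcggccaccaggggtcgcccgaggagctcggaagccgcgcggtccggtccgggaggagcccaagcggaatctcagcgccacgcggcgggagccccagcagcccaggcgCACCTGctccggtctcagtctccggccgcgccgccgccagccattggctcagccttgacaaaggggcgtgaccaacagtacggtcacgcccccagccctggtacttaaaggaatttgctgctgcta
The Zeb2 windows hold no CANNTG, and their first bases before the start lie 47 bases from the annotated start of the one transcript of the upstream site and directly at that of Zeb2-202, the leading transcript of the middle site. The Snai1 window holds 1 E-box, CACCTG, which begins 126 bases before the start and is of the form CACCTG or CAGGTG (each the reverse complement of the other, and a subset of CANNTG) that Snail and Zeb proteins bind. Of the 8 windows at hand for genes of the set, that of Snai1 alone holds either form, and the windows not printed hold none. Of 32851 windows of this length over all genes, 66.2% hold CANNTG and 17.2% hold CACCTG or CAGGTG. A match of letters is a description and not a binding site.

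Corrected for transcript length, as TPM (transcripts per 1000000), the 9 genes ranged from Vim, among the abundant transcripts, to Twist1, which was not detected. In control libraries Vim averaged 1913 ± 43 TPM, Zeb2 59.6 ± 3.5, Nes 28.2 ± 0.7, Loxl2 7.6 ± 0.9, Sox9 7.42 ± 0.53 and Snai2 2.45 ± 0.71 TPM (SD, n = 3). Loxl2 and Sox9 overlapped there and could not be ordered, with 6.68 to 8.49 TPM for Loxl2 and 6.84 to 7.88 TPM for Sox9, and the other neighbours in this order did not overlap. In the perturbed lines the order of Vim, Zeb2 and Nes was the same, but Sox9 lay above Loxl2 in all libraries, at 8.41 ± 0.76 against 4.09 ± 0.58 TPM in overexpression and 6.28 ± 0.52 against 3.72 ± 0.099 TPM in knockdown.

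**Figure D1:**
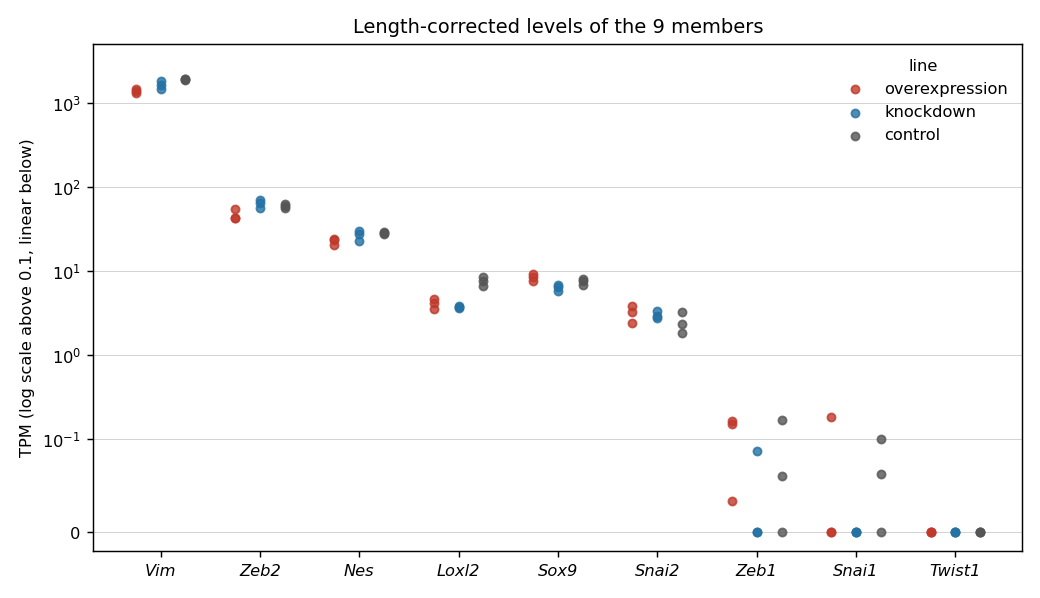
TPM of the 9 genes on the y axis (log scale above 0.1, linear below), with 1 point per library and the lines from left to right as overexpression, knockdown and control. Vim stands highest at 1318 to 1941 TPM, Zeb2 follows at 43 to 68.9 TPM, and Zeb1, Snai1 and Twist1 lie at or near 0.

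Zeb1, Snai1 and Twist1, the remaining factor genes, were at or near the limit of detection and did not pass the filter on low counts. Zeb1 had 3, 1 and 4 estimated counts in overexpression libraries, 3, 0 and 0 in knockdown libraries and 4, 0 and 3 in control libraries. Snai1 had 0, 3 and 0 counts in overexpression libraries, 0 in all knockdown libraries and 1, 0 and 2 in control libraries. Twist1, with 1 annotated transcript, had 0 counts in all 9 libraries, where 3 counts, the floor that a count of 0 allows, correspond to 0.135 to 0.184 CPM, for counting error only. No difference between lines was detectable for them at this depth, and none was tested.

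Zeb2 thus carried nearly all of the TPM of these 5 factor genes. Its share of the summed TPM of Zeb2, Snai2, Zeb1, Snai1 and Twist1 was 91.6%, 94.4% and 94.1% in overexpression libraries, 95.6%, 95.4% and 95.4% in knockdown libraries and 94.7%, 97.2% and 95.5% in control libraries. All 3 overexpression libraries lay below all the knockdown and control libraries. The ratio of Zeb2 to Snai2 TPM was 11.4, 18.2 and 16.8 in overexpression, 22.2, 20.5 and 20.6 in knockdown and 18.7, 35 and 23.9 in control libraries. With Zeb1, Snai1 and Twist1 near 0, this ratio restates the share and is not a second result. Overexpression was apart from the other lines only narrowly, with 18.2 in overexpression replicate 2 and 18.7 in control replicate 1. The ratio rests on 38 to 101 counts of Snai2 per library, and Snai2 was called in no comparison.

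Differences between lines were tested with edgeR's quasi-likelihood test over 13064 genes, with Benjamini-Hochberg adjustment over all of them and a call at an adjusted p under 0.05. Zeb2, Snai2, Sox9, Vim, Loxl2 and Nes were the 6 genes of the set that passed the filter. In overexpression against control, 4 of the 6 fell (Zeb2, Vim, Nes and Loxl2), none rose, and their median log2 fold change was -0.33. Over all genes tested in this comparison 24.3% were called (13.1% higher and 11.1% lower), with a median of 0. In knockdown against control, 3 of the 6 fell (Sox9, Vim and Loxl2), none rose, and the median was -0.21, beside 35.4% of all genes called (18% higher and 17.4% lower) and a median of -0.01. In overexpression against knockdown, 1 rose (Sox9), 2 fell (Zeb2 and Vim), and the median was -0.06, beside 22.1% of all genes called (11% higher and 11.1% lower) and a median of 0. The comparisons with control share the control libraries, and the 6 genes that passed are not the whole set. None of the 6 was higher than control at an unadjusted p under 0.05 in edgeR (0 in each perturbed line), and DESeq2 and limma-voom called 0 higher too.

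**Figure D2:**
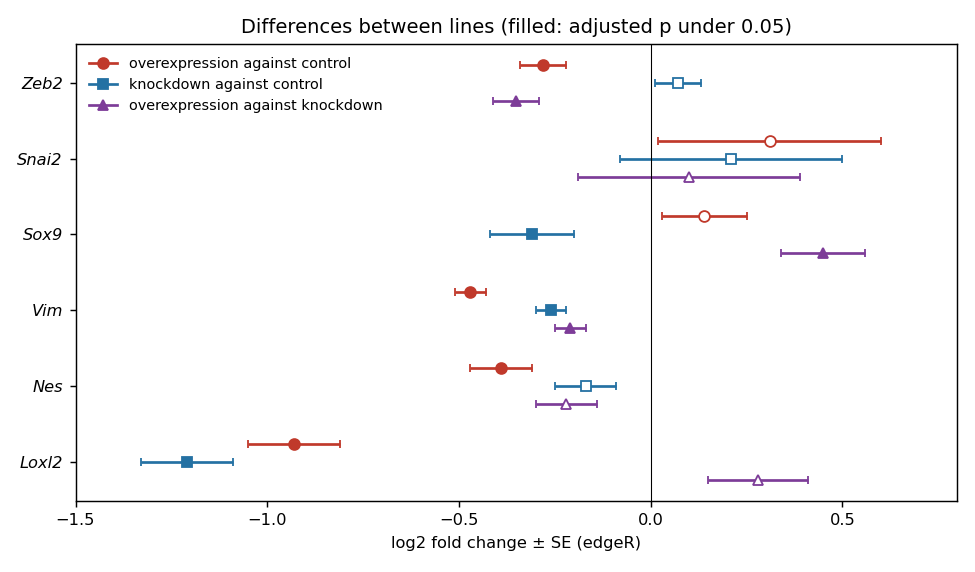
log2 fold change from edgeR on the x axis with its SE for the 6 tested genes, in overexpression against control, knockdown against control and overexpression against knockdown. Filled symbols passed an adjusted p of 0.05. Vim lies left of 0 in all 3 comparisons, Loxl2 has the largest changes from control, and Sox9 is the only gene that rose in overexpression against knockdown.

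Zeb2, the zinc-finger repressor gene, was lower with Sirpa overexpression than in both other lines. Its level was 139.5, 141.8 and 155.4 CPM in overexpression libraries, 188.5, 175.7 and 191.2 CPM in knockdown libraries and 169.2, 189.7 and 170.5 CPM in control libraries. The overexpression libraries lay below all others, and knockdown and control overlapped. In edgeR Zeb2 fell by 0.28 ± 0.06 on the log2 scale in overexpression against control (SE; adjusted p = 0.00183), which is 1.21-fold lower, and by 0.35 ± 0.06 in overexpression against knockdown (adjusted p = 0.000318). Knockdown against control gave a log2 fold change of 0.07 ± 0.06 (edgeR adjusted p = 0.37). In bulk RNA, fewer cells with a transcript and less of it per cell cannot be told apart, for Zeb2 as for the genes below. The library kit does not mark strand, and reads of the antisense gene Zeb2os, which shares 3.3% of the exonic bases of Zeb2, cannot be told apart from it there. Zeb2os was assigned 307 counts in all against 27705 for Zeb2.

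Zeb2 has 29 annotated transcripts, of which 21 had a value above 0 in some library. The leading one, Zeb2-202, held 28.4% to 42.2% of the gene's TPM and 36.9% to 51.5% of its estimated counts. Grouped by start, transcripts from the middle start, whose window is printed above, summed to 71.9, 73.9 and 69.7 CPM in overexpression libraries, 101, 90.2 and 82.3 CPM in knockdown libraries and 81.1, 106 and 81.7 CPM in control libraries, so that overexpression lay below both other lines. The upstream start, used by 1 annotated transcript, gave overlapping levels of 39.4 to 51.8, 36.6 to 54 and 46.2 to 48.7 CPM in overexpression, knockdown and control libraries. The downstream start gave 26.4 to 33.6 CPM in overexpression, 36.6 to 54.7 CPM in knockdown and 34.5 to 42 CPM in control libraries, without overlap of overexpression with the others. In TPM the middle start kept that separation, at 22.4 to 23.6 in overexpression, 28.5 to 37.6 in knockdown and 30.8 to 39.9 in control libraries, while the downstream start overlapped between overexpression (13.5 to 20.6) and control (15.1 to 21.9). As a share of Zeb2 counts, the middle start held 49.5% ± 4.02 in overexpression, 49.3% ± 5.52 in knockdown and 50.7% ± 4.71 in control (SD, n = 3 each). The upstream start held 28.2% to 33.3% in overexpression, 20.8% to 28.2% in knockdown and 25.7% to 27.5% in control libraries. The downstream start held 18.6% to 21.6% in overexpression, 19.4% to 28.6% in knockdown and 18.2% to 24.7% in control libraries, with overlap. Counts of single transcripts are estimates divided among overlapping isoforms, so these groups are described without a test.

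**Figure D3:**
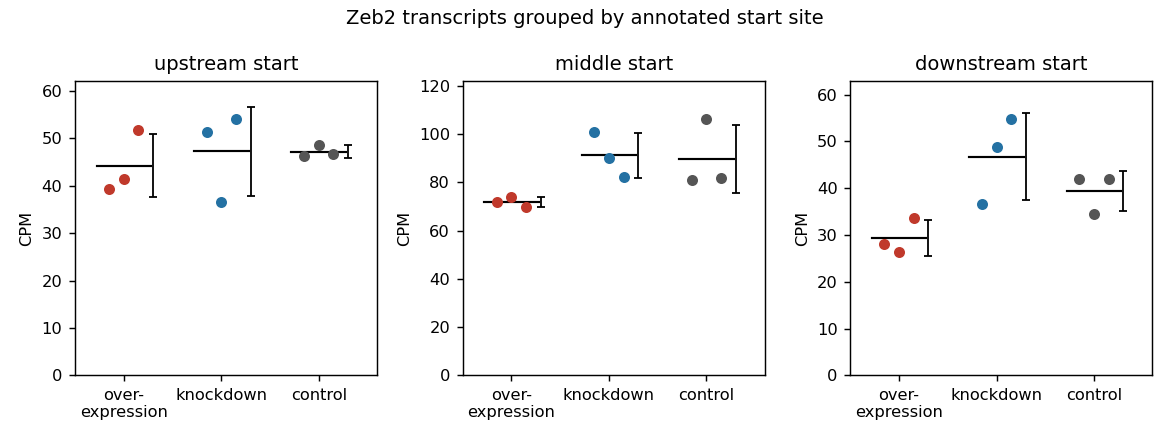
CPM on the y axis of Zeb2 transcripts grouped by annotated start site (upstream, middle and downstream), with 1 point per library, the mean as a line and the SD beside it, for overexpression, knockdown and control. The overexpression libraries lie lowest for the middle start (69.7 to 73.9 CPM) and the downstream start (26.4 to 33.6 CPM) and overlap the others for the upstream start.

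Snai2, the Snail family member known as Slug, had no call in any comparison. It stood at 4.763, 2.942 and 3.955 CPM in overexpression libraries, 3.562, 3.332 and 4.012 CPM in knockdown libraries and 4.105, 2.304 and 3.006 CPM in control libraries. All 3 lines overlapped. The edgeR log2 fold changes were 0.31 ± 0.29 for overexpression against control (adjusted p = 0.493), 0.21 ± 0.29 for knockdown against control (0.623) and 0.10 ± 0.29 for overexpression against knockdown (0.846), with errors wide enough that a change of the size seen for Zeb2 was not detectable.

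Sox9, a gene of neural crest and cartilage, was the one tested gene of the set whose knockdown libraries lay below all those of both other lines. It had 23.77, 21.12 and 24.7 CPM in overexpression libraries, 18.67, 17.02 and 15.07 CPM in knockdown libraries and 21.32, 22.49 and 19.47 CPM in control libraries. Overexpression and control overlapped. In edgeR Sox9 rose by 0.45 ± 0.11 on the log2 scale in overexpression against knockdown (adjusted p = 0.00655), fell by 0.31 ± 0.11 in knockdown against control (adjusted p = 0.0351) and had a log2 fold change of 0.14 ± 0.11 in overexpression against control (adjusted p = 0.398). The call in knockdown against control was lost in 8 of 17 alternative fits, including those without knockdown replicate 2 (adjusted p = 0.0659), knockdown replicate 3 (0.147), control replicate 1 (0.0843) or control replicate 2 (0.128). The call in overexpression against knockdown held in all 17.

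Vim, which encodes the mesenchymal filament protein vimentin, was the most abundant gene of the set and differed between every pair of lines. Its level was 1702, 1803 and 1707 CPM in overexpression libraries, 1889, 2023 and 2131 CPM in knockdown libraries and 2437, 2441 and 2342 CPM in control libraries. No line overlapped with another, with overexpression lowest and control highest. In edgeR Vim fell by 0.47 ± 0.04 on the log2 scale in overexpression against control (adjusted p = 4.78e-07), by 0.26 ± 0.04 in knockdown against control (adjusted p = 0.000131) and by 0.21 ± 0.04 in overexpression against knockdown (adjusted p = 0.00129). Of its 6 annotated transcripts Vim-201 held 78% to 97.9% of the TPM and 93.1% to 99% of the estimated counts.

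Nes, which encodes nestin, a filament protein of neural progenitors and neural crest derivatives that assembles with vimentin, had the same order of means. It had 98.46, 84.32 and 93.31 CPM in overexpression libraries, 113.8, 116.9 and 91.05 CPM in knockdown libraries and 118.2, 119.8 and 123.9 CPM in control libraries. All libraries of both perturbed lines lay below control, and overexpression overlapped with knockdown through knockdown replicate 3. In edgeR Nes fell by 0.39 ± 0.08 on the log2 scale in overexpression against control (adjusted p = 0.00209). The log2 fold change was -0.17 ± 0.08 in knockdown against control (adjusted p = 0.115) and -0.22 ± 0.08 in overexpression against knockdown (adjusted p = 0.0613). Without knockdown replicate 3 overexpression against knockdown passed, with an adjusted p of 0.00202, as it did without overexpression replicate 1 (0.0459), and knockdown against control passed without knockdown replicate 2 (0.0472).

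Loxl2, the lysyl oxidase gene, had the largest change of the 6 tested genes in both comparisons with control. Its level was 15.33, 12.59 and 14.79 CPM in overexpression libraries, 12.31, 10.29 and 12.64 CPM in knockdown libraries and 23.84, 28.49 and 29.03 CPM in control libraries. The libraries of both perturbed lines lay below control and overlapped with each other. In edgeR Loxl2 fell by 0.93 ± 0.12 on the log2 scale in overexpression against control (adjusted p = 3.54e-05), which is 1.9-fold lower, and by 1.21 ± 0.12 in knockdown against control (adjusted p = 1.39e-06), which is 2.31-fold lower. Overexpression against knockdown gave a log2 fold change of 0.28 ± 0.13 (adjusted p = 0.133). Of the 31-base words of Loxl2, 46.4% occur in other genes, 43.3% in the copy Gm21451 alone, which had 0 estimated counts in every library, so the counts of Loxl2 depend on how fragments were divided between them.

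**Figure D4:**
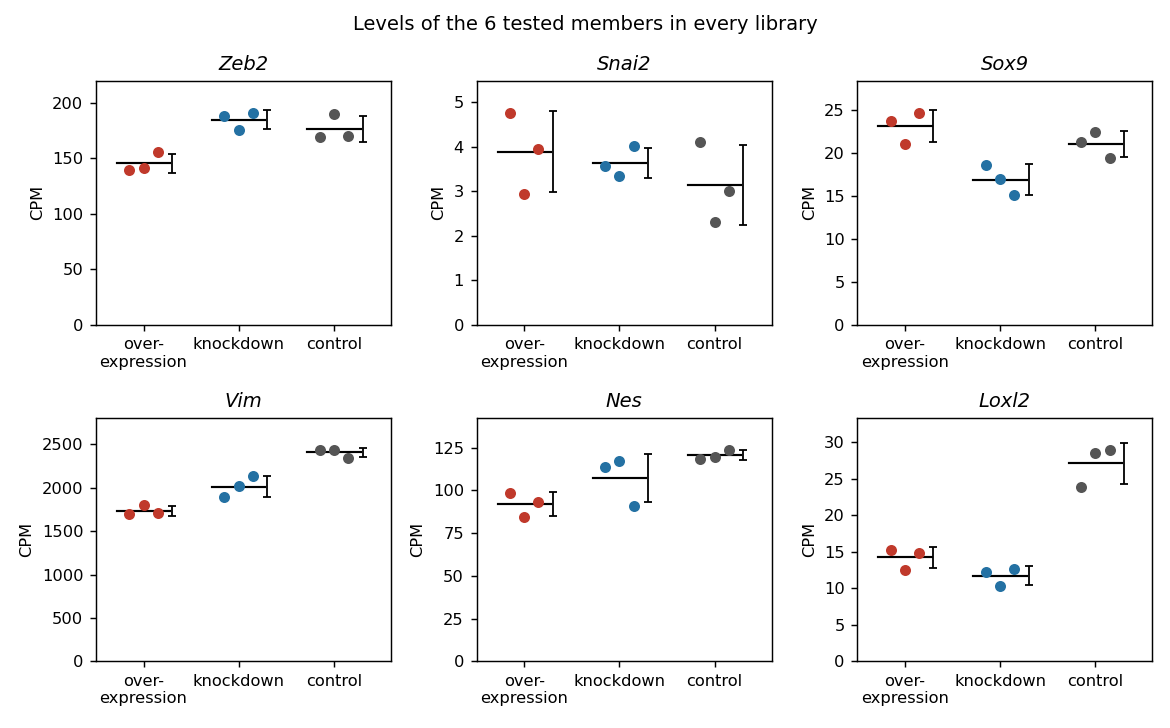
CPM on the y axis (from 0) of the 6 tested genes, with 1 point per library, the mean as a line and the SD beside it, for overexpression, knockdown and control from left to right. Loxl2 separates both perturbed lines from control, Vim separates all lines, Zeb2 is low in overexpression alone and Sox9 in knockdown alone.

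Across the 9 libraries, the genes whose log2 CPM followed each called gene most closely were listed among 9803 genes with a mean of at least 5 CPM, as a description over libraries that fall into 3 lines. For Zeb2 they included Rbbp9 (r = 0.961) and the tau gene Mapt (0.956), the last with 14 ± 0.49 CPM in overexpression, 17.6 ± 1.2 in knockdown and 17.4 ± 0.51 CPM in control. For Sox9 they were Unc13b (r = 0.977), Hsf4 (0.964) and the podoplanin gene Pdpn (0.953), the last with 25 ± 1.7, 16.5 ± 1.7 and 22.7 ± 2.9 CPM in overexpression, knockdown and control (SD, n = 3 each). For Vim they were the adhesion receptor gene Adgrg1 (r = 0.987), Pcca (0.987) and the carboxypeptidase gene Cpe (0.977). For Loxl2 they were Nisch (r = 0.981), the follistatin-like gene Fstl1 (0.981) and Abca12 (0.98), and for Nes they were L3mbtl3 (0.984), Arhgap28 (0.98) and the drebrin gene Dbn1 (0.967). Many other genes shared these patterns. An r over 0.9 was reached by 59 genes for Zeb2, 40 for Sox9, 125 for Vim, 229 for Loxl2 and 30 for Nes. Among the 6 tested genes themselves r ranged from -0.61 between Zeb2 and Sox9 to 0.71 between Vim and Loxl2.

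The counts in the gene lists that follow stand beside the shares of all genes called, 24.3% in overexpression against control, 35.4% in knockdown against control and 22.1% in overexpression against knockdown. Of 20 other EMT transcription factors, 13 were tested. In overexpression against control 1 rose and 7 fell (median log2 fold change -0.32), in knockdown against control 2 rose and 5 fell (-0.29), and in overexpression against knockdown 2 rose and 3 fell (0.03). Tcf12, a class I helix-loop-helix partner of Twist proteins, rose in edgeR by 0.50 ± 0.04 with overexpression (adjusted p = 3.81e-07) and by 0.35 ± 0.04 with knockdown (8.17e-06), at 344 ± 3.3, 311 ± 17 and 244 ± 3.5 CPM in overexpression, knockdown and control (SD, n = 3 each). Its relative Tcf4 fell by 0.53 ± 0.06 with overexpression (adjusted p = 9.72e-06), at 60.9 ± 2.1 CPM in overexpression and 87.9 ± 1.8 CPM in control, and had -0.10 ± 0.06 in knockdown (0.233). Runx2, an osteoblast factor, was at 1.92 ± 0.29 CPM in overexpression, 1.83 ± 0.13 in knockdown and 5.69 ± 0.56 CPM in control, and fell by 1.56 ± 0.28 with overexpression (edgeR adjusted p = 0.000722) and fell by 1.63 ± 0.28 with knockdown (0.000294). Both Runx2 calls were lost when transcript length entered the fit, where the log2 fold change was -0.97 ± 0.70 with overexpression (edgeR adjusted p = 0.433) and -2.01 ± 0.69 with knockdown (0.0615). Sox11 fell by 0.99 ± 0.06 with knockdown (edgeR adjusted p = 2.14e-09) and by 0.21 ± 0.06 with overexpression (0.0133), a call lost without overexpression replicate 1 (0.052), control replicate 1 (0.0597) or control replicate 2 (0.0745). The 2 rises in overexpression against knockdown came to 1 without knockdown replicate 1, knockdown replicate 2, overexpression replicate 1 or overexpression replicate 2. With transcript length in the fit, 1 rose and 3 fell in knockdown against control, and 1 rose in overexpression against knockdown. Foxc1 rose by 0.27 ± 0.09 with knockdown (edgeR adjusted p = 0.0244), a call lost without knockdown replicate 2 (0.0773), knockdown replicate 3 (0.102), control replicate 1 (0.0589) or control replicate 2 (0.081).

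Among 20 genes whose products serve Snail and Zeb proteins as corepressors or set their stability, 19 were tested. With overexpression against control 5 rose and 4 fell (median 0.01), in knockdown against control 6 rose and 4 fell (0.10), and in overexpression against knockdown 3 rose and 4 fell (-0.02). Limd1, a LIM domain adaptor of the Ajuba family, fell by 0.33 ± 0.06 with overexpression (edgeR adjusted p = 0.00045) and by 0.65 ± 0.06 with knockdown (2.61e-07). The corepressor gene Ctbp1 fell by 0.29 ± 0.04 with knockdown (edgeR adjusted p = 8.02e-05) and had 0.01 ± 0.04 with overexpression (0.947). Suz12, of the Polycomb complex PRC2, rose by 0.36 ± 0.04 with knockdown (edgeR adjusted p = 6.15e-06) and by 0.16 ± 0.04 with overexpression (0.00918), the last lost without control replicate 2 (0.0509). Fbxl14, the F-box gene whose product marks Snail proteins for degradation, rose by 0.50 ± 0.08 with knockdown (edgeR adjusted p = 0.000137) and by 0.23 ± 0.08 with overexpression (0.0442), the last lost without overexpression replicate 1 (0.14), overexpression replicate 3 (0.135) or any one control library (0.0818 to 0.115). The counts against control with overexpression moved with single libraries. The 5 rises came to 3 without overexpression replicate 1, overexpression replicate 3 or control replicate 3 and to 2 without control replicate 2. The 4 falls came to 2 without overexpression replicate 3 or control replicate 1 and to 1 without overexpression replicate 1, control replicate 2 or control replicate 3. In overexpression against knockdown the 4 falls came to 2 without knockdown replicate 3 or overexpression replicate 2. With transcript length in the fit, 3 rose and 1 fell in overexpression against control, and 2 fell in overexpression against knockdown.

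Epithelial genes repressed by these factors were mostly silent. Of 30, 11 had 0 counts in all libraries and 9 were tested. In overexpression against control 0 were called in edgeR, DESeq2 or limma-voom, beside 24.3% of all genes in edgeR. Of them 1 had an unadjusted p under 0.05 in edgeR, and 1 was called lower without a filter on low counts or without control replicate 3. In knockdown against control 2 rose and none fell, and the same 2 genes fell in overexpression against knockdown. Among them the desmosomal gene Pkp2 rose by 0.57 ± 0.12 with knockdown (edgeR adjusted p = 0.00133), at 11.5 ± 0.97, 17.9 ± 1.4 and 12.1 ± 0.36 CPM in overexpression, knockdown and control (SD, n = 3 each). The junction genes Jup and Patj were called in neither comparison with control, Jup at -0.32 ± 0.13 (edgeR adjusted p = 0.0965) with overexpression and -0.25 ± 0.13 (0.171) with knockdown, and Patj at -0.28 ± 0.18 (0.289) with overexpression and -0.38 ± 0.18 (0.107) with knockdown. Without knockdown replicate 3, 2 genes of the list were called lower in knockdown.

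Among 24 mesenchymal effector genes, 18 were tested. Against control, 5 rose and 8 fell with overexpression (median -0.26), beside 24.3% of all genes called, and 4 rose and 11 fell with knockdown (-0.46), beside 35.4%, and in overexpression against knockdown 5 rose and 3 fell (0.11). The fibronectin gene Fn1 stood at 123 ± 11 CPM in overexpression, 111 ± 1.8 in knockdown and 487 ± 7.7 CPM in control, and fell by 1.98 ± 0.05 with overexpression (edgeR adjusted p = 4.3e-13) and fell by 2.14 ± 0.05 with knockdown (1.49e-13). The N-cadherin gene Cdh2 fell by 0.94 ± 0.04 with overexpression (edgeR adjusted p = 1.4e-10) and by 0.33 ± 0.04 with knockdown (8.14e-06), at 151 ± 4.5, 231 ± 5.3 and 290 ± 3.2 CPM in overexpression, knockdown and control, the same order of lines as Vim. The collagen gene Col5a1 fell by 1.04 ± 0.06 with overexpression (edgeR adjusted p = 8.19e-09) and fell by 1.25 ± 0.06 with knockdown (4.06e-10), at 58.3 ± 2.6, 50.3 ± 0.16 and 120 ± 7 CPM in overexpression, knockdown and control, the order of lines of Loxl2. Col1a1 differed most between the perturbed lines, at 66.5 ± 3.5 CPM in overexpression, 4.95 ± 0.7 in knockdown and 55.6 ± 2.5 CPM in control (SD, n = 3 each). It fell by 3.50 ± 0.10 with knockdown (edgeR adjusted p = 4.57e-13) and rose by 0.26 ± 0.08 with overexpression (0.0233), the last lost without overexpression replicate 2 (0.105), overexpression replicate 3 (0.0626), control replicate 1 (0.0968) or control replicate 3 (0.0675). The 5 rises of the list with overexpression came to 2 without overexpression replicate 3 or control replicate 3 and to 3 without overexpression replicate 2 or control replicate 1. With transcript length in the fit they came to 1, while 8 fell. The 11 fibroblast markers summed to 103 to 114 CPM in overexpression, 60.7 to 69.8 CPM in knockdown and 87.7 to 97.1 CPM in control libraries, and they hold Col1a1 and other genes of this list. Besides Col1a1, those with the highest levels were Postn (14.3 CPM in overexpression, 34 in knockdown and 15 CPM in control), Pdgfrb (16.6, 14.7 and 11.6 CPM in overexpression, knockdown and control), Col1a2 (8.39, 8.62 and 5.27 CPM in overexpression, knockdown and control) and Pdgfra (3.04, 3.94 and 4.08 CPM in overexpression, knockdown and control). The other 6, Col3a1, Dcn, Lum, Fap, Acta2 and Thy1, averaged at most 0.384 CPM in any line, with Thy1 at 0. The part of the summed markers in these results was not tested.

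Of the other lysyl oxidase genes (Lox, Loxl1, Loxl3 and Loxl4), 2 were tested. Loxl3 showed no call, at 69.9 ± 4.7 CPM in overexpression, 69.6 ± 0.84 in knockdown and 67.4 ± 4 CPM in control, with log2 fold changes of 0.05 ± 0.07 in both comparisons with control (edgeR adjusted p = 0.625 and 0.63). Loxl1 was near the detection limit, with 14, 15 and 4 counts in overexpression libraries, 1, 3 and 0 in knockdown libraries and 17, 21 and 18 in control libraries, and was called lower in knockdown (edgeR adjusted p = 0.00327). With a filter of 1 CPM in 3 libraries, 0 genes of the list were called lower in knockdown. In overexpression against knockdown Loxl1 rose by 2.91 ± 0.90 (edgeR adjusted p = 0.0295). That rise came to 0 with the same filter, a fit of the 2 lines compared or transcript length in the fit. It also came to 0 without knockdown replicate 1, knockdown replicate 3, overexpression replicate 1 or overexpression replicate 2. Of the 2 tested, 1 was called higher in overexpression than in control when transcript length was in the fit.

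Of 15 intermediate filament genes and their linkers besides Vim and Nes, 11 were tested. Against control, 2 rose and 4 fell with overexpression (median -0.15) and 3 rose and 5 fell with knockdown (-0.19), and in overexpression against knockdown 1 rose and 4 fell (-0.27). The lamin A gene Lmna followed the order of Vim, at 313 ± 10 CPM in overexpression, 357 ± 18 in knockdown and 436 ± 5.9 CPM in control, and fell by 0.48 ± 0.04 with overexpression (edgeR adjusted p = 6.05e-07) and fell by 0.29 ± 0.04 with knockdown (5.87e-05). The desmin gene Des, a filament gene of muscle, went the other way, at 10 ± 1.4, 17 ± 0.94 and 5.42 ± 0.75 CPM in overexpression, knockdown and control, and rose by 0.89 ± 0.16 with overexpression (edgeR adjusted p = 0.00056) and by 1.65 ± 0.16 with knockdown (5.55e-07). The lamin B1 gene Lmnb1 fell by 0.59 ± 0.05 with knockdown (edgeR adjusted p = 1.49e-07), and the linker gene Macf1 rose by 0.43 ± 0.04 with knockdown (7.54e-07). With overexpression Lmnb1 had -0.15 ± 0.05 (edgeR adjusted p = 0.0334) and Macf1 0.13 ± 0.04 (0.0269). Each of these calls was lost without any one library of several, among them overexpression replicate 3 (adjusted p = 0.104 for Lmnb1 and 0.171 for Macf1), control replicate 1 (0.0783 and 0.0578) and control replicate 3 (0.165 and 0.0954). Lmnb1 also lost it without overexpression replicate 1 (0.062) or overexpression replicate 2 (0.076), and Macf1 without control replicate 2 (0.0696). The 5 falls of the list with knockdown came to 3 without control replicate 3, and the 1 rise in overexpression against knockdown came to 2 without knockdown replicate 2 or overexpression replicate 2. With transcript length in the fit, 1 rose and 2 fell with overexpression and 3 fell with knockdown, against control.

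Of 17 other SOX genes, 10 had 0 counts in all libraries and 4 were tested. Against control, 3 fell with overexpression (median -0.29) and 2 with knockdown (-0.19), and 0 rose in edgeR, DESeq2 or limma-voom or at an unadjusted p under 0.05. Sox10, the neural crest and melanocyte factor, fell by 0.25 ± 0.04 with overexpression (edgeR adjusted p = 0.00037) and by 0.24 ± 0.04 with knockdown (0.000304), at 413 ± 8.4, 416 ± 18 and 492 ± 19 CPM in overexpression, knockdown and control. Sox6 fell by 0.37 ± 0.08 with overexpression (edgeR adjusted p = 0.00193). Sox5 fell by 0.33 ± 0.10 with overexpression (edgeR adjusted p = 0.0245) and by 0.45 ± 0.10 with knockdown (0.00251), but with transcript length in the fit its log2 fold changes were 0.51 (adjusted p = 0.481) and 0.43 (0.496). The overexpression call of Sox5 was also lost without overexpression replicate 2 (0.0877), overexpression replicate 3 (0.0569), control replicate 2 (0.0955) or control replicate 3 (0.0537). With transcript length in the fit, 1 gene of the list fell in each comparison with control. Sox21 was called in neither comparison with control, at 0.42 ± 0.22 with overexpression (edgeR adjusted p = 0.175) and -0.08 ± 0.22 with knockdown (0.825). Overexpression against knockdown had 1 call, of Sox6 (log2 fold change -0.22 ± 0.08, edgeR adjusted p = 0.043), and none in 10 of the 17 alternatives, among them those without knockdown replicate 2, knockdown replicate 3, overexpression replicate 2, overexpression replicate 3 or any one control library.

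Among 17 cartilage genes known from chondrocytes as bound by Sox9, 9 were tested. Against control, 5 fell and none rose with overexpression (median -0.35), 6 fell and none rose with knockdown (-1.12), and in overexpression against knockdown 3 rose and 1 fell (0.26). DESeq2 and limma-voom called 0 higher than control as well, and at an unadjusted p under 0.05 edgeR had 0 higher with overexpression and 1 with knockdown. The matrilin gene Matn3 was at 1.77 ± 0.71 CPM in overexpression, 2.74 ± 0.061 in knockdown and 22.7 ± 2.6 CPM in control, and fell by 3.66 ± 0.23 with overexpression (edgeR adjusted p = 1.21e-08) and fell by 3.05 ± 0.22 with knockdown (2.65e-08). The collagen gene Col27a1 was low in knockdown alone, at 7.51 ± 1.4, 2.49 ± 0.43 and 8.11 ± 0.8 CPM in overexpression, knockdown and control, as Sox9 was, and fell by 1.69 ± 0.22 there (edgeR adjusted p = 1.79e-05). Hapln1, which encodes a link protein of hyaluronan, was low in overexpression alone, at 7.02 ± 0.64, 21.6 ± 3.4 and 17.4 ± 1.6 CPM in overexpression, knockdown and control, and fell by 1.31 ± 0.14 (edgeR adjusted p = 4.71e-06). Wwp2, the host gene of miR-140, fell by 0.35 ± 0.07 with overexpression (edgeR adjusted p = 0.00123) and by 0.61 ± 0.07 with knockdown (4.02e-06). The 3 rises in overexpression against knockdown came to 1 without knockdown replicate 3 or overexpression replicate 1, and the 1 fall came to 2 without overexpression replicate 1. With transcript length in the fit the 3 rises also came to 1. Without knockdown replicate 2, 1 gene was called higher in knockdown than in control.

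Of 21 genes of the invasive melanoma state, 14 were tested. In overexpression against control 4 rose and 5 fell (median -0.14), in knockdown against control 2 rose and 6 fell (-0.20), and in overexpression against knockdown 4 rose and 3 fell (0.05), with 2 rising when transcript length was in the fit. The receptor kinase gene Axl stood at 18.8 ± 2.9 CPM in overexpression, 9.86 ± 0.45 in knockdown and 41.3 ± 3 CPM in control, and fell by 1.14 ± 0.11 with overexpression (edgeR adjusted p = 1.39e-06) and fell by 2.07 ± 0.12 with knockdown (1.52e-09). The neural crest receptor gene Ngfr was all but absent from both perturbed lines, with 3, 0 and 1 estimated counts in overexpression libraries, 18, 6 and 9 in knockdown libraries and 179.1, 155.3 and 195.1 in control libraries (edgeR adjusted p = 5.96e-08 and 5.15e-07). The AP-1 gene Fosl2 fell by 0.70 ± 0.11 with overexpression (edgeR adjusted p = 0.000207) and fell by 0.95 ± 0.11 with knockdown (6.15e-06). Against these, the TGF-beta receptor gene Tgfbr2 rose by 0.31 ± 0.07 with overexpression (edgeR adjusted p = 0.00251) and by 0.67 ± 0.07 with knockdown (8.79e-07). Ccn1, a target of YAP, rose by 0.49 ± 0.06 with overexpression (edgeR adjusted p = 2.29e-05) and by 0.17 ± 0.06 with knockdown (0.0425), the last lost in 10 of 17 alternatives, among them those without knockdown replicate 2 (0.0974), knockdown replicate 3 (0.181), overexpression replicate 3 (0.0538), control replicate 1 (0.055), control replicate 2 (0.107) or control replicate 3 (0.122).

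Of 16 melanocytic genes, 15 were tested. Overexpression against control gave 5 rises and 4 falls (median 0.06), knockdown against control 1 rise and 10 falls (-0.20), and in overexpression against knockdown 10 rose and 0 fell (0.26), beside 11% of all genes higher and 11.1% lower, with 0 lower also in DESeq2, in limma-voom and at an unadjusted p under 0.05 in edgeR. The channel gene Trpm1 was at 373 ± 5.2 CPM in overexpression, 44.8 ± 2.2 in knockdown and 234 ± 2.9 CPM in control, and rose by 0.68 ± 0.04 with overexpression (edgeR adjusted p = 8.19e-09) and fell by 2.38 ± 0.05 with knockdown (4.79e-15). The tyrosinase gene Tyr rose by 0.45 ± 0.04 with overexpression (edgeR adjusted p = 8.42e-07) and had 0.01 ± 0.04 with knockdown (0.838). The factor gene Tfap2a fell by 0.66 ± 0.06 with overexpression (edgeR adjusted p = 3.54e-07) and fell by 0.62 ± 0.06 with knockdown (3.49e-07). The melanocortin receptor gene Mc1r, which shares 20.1% of its 31-base words with other genes, fell by 0.43 ± 0.04 with knockdown (edgeR adjusted p = 1.29e-06) and had -0.05 ± 0.04 with overexpression (0.492). Tyrp1 was the one gene of the list to rise with knockdown, by 0.21 ± 0.03 (edgeR adjusted p = 0.000179).

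**Figure D5:**
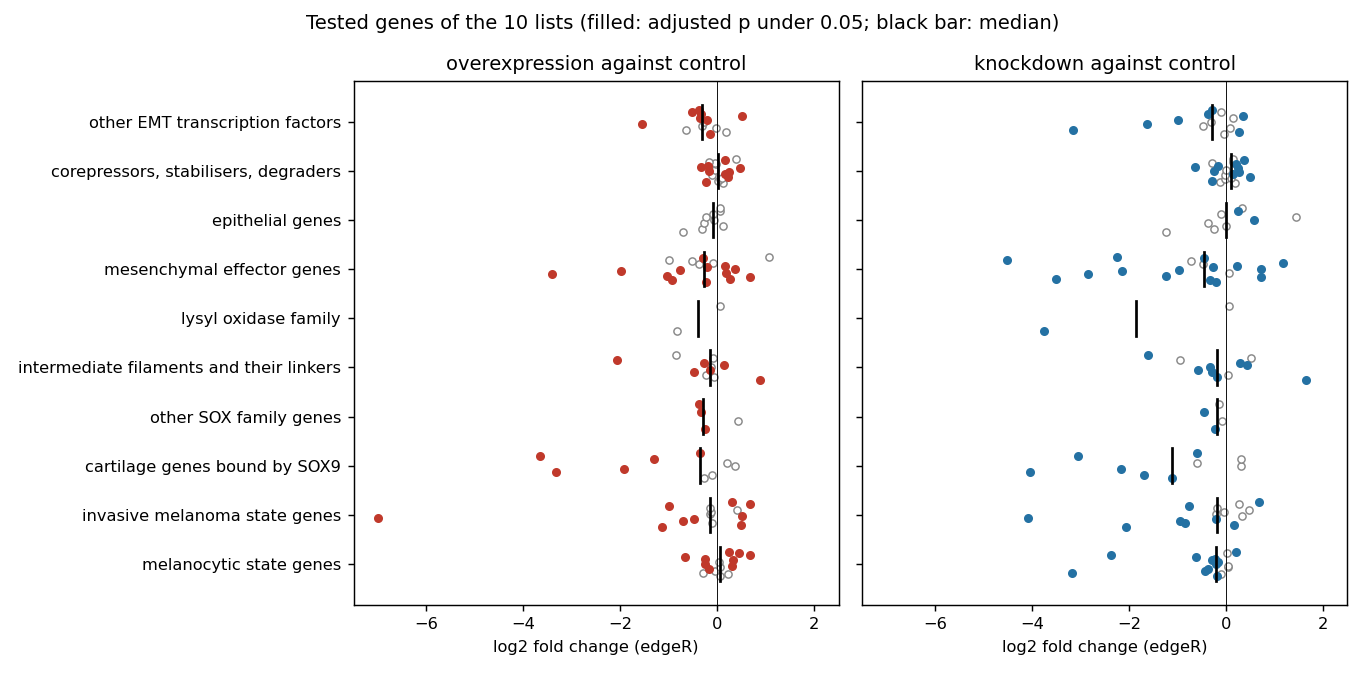
log2 fold change from edgeR on the x axis of each tested gene in the 10 gene lists on the y axis, in overexpression against control (left) and knockdown against control (right). Filled points passed an adjusted p of 0.05 and the black bar is the median, which lies left of 0 for mesenchymal effectors (-0.26 and -0.46) and cartilage genes (-0.35 and -1.12).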

How the data were processed

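Per the labels' protocols, total RNA of B16F10 cells was made into non-directional libraries and sequenced as paired reads of 150 bases. The authors deposited 1 table per library with, per the file headers, the estimated count, TPM and effective length of each transcript. The submitters' processing notes name build mm39 and Salmon 1.4.0, with DESeq2 1.34.0 and MultiQC 1.11. Which annotation release was used is not given in the sources used here. Fragments shared by transcripts are split by Salmon, so gene totals are firmer than single transcripts.

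Transcript identifiers were matched to GENCODE M21 genes (137161 of 140789, 97.42%), and unmatched ones, 0.554% to 0.654% of counts, were left out. Deposited estimated counts were summed per gene and rounded, and deposited TPM were summed. The effective length entered only as an offset in an alternative fit, and coordinates are given only for RefSeq windows of GRCm38.p6. edgeR 4.0.16 (R 4.3.3) was used with filterByExpr, TMM and a quasi-likelihood fit of all 9 libraries by line, tested on simulated data. Of simulated log2 changes of 0.3, 24.5% were called in overexpression against control and 30.6% in knockdown against control. For changes of 0.5 the shares were 52% and 45.8%, and for changes of 1 they were 89.1% and 81.2%. Small changes were thus often missed in the simulated data, where 12545 of the 12739 genes tested were unchanged in each comparison. In the real data 3172 and 4619 of 13064 genes were called in overexpression and in knockdown against control. The adjustment is stricter where fewer genes change, so these shares do not give the sensitivity of the real comparisons. Libraries of a line differed beyond sampling noise (chi-square per degree of freedom 4.84 to 11.48), so none was counted as a copy. Alternatives were DESeq2 1.42.0, limma-voom (3.58.1), other normalisation, filters, samples, length, a replicate block and leaving out each library.

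The members, lists and tests were chosen with earlier results of these data known. All 9 members are named. Of each list up to 4 genes with the lowest adjusted p in either comparison with control are named, with any that go against the majority when at most 2 do. The most alike genes are the 3 with the highest Pearson correlation of log2 CPM. A few genes that these rules name are not reported here.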

Additional observations from a re-analysis of the deposited data

How the results depend on the processing

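Under 17 alternatives, each a change of test, normalisation, filter, samples, length or library, the 4 calls in overexpression against control and the calls of Vim and Loxl2 in knockdown against control kept their direction and stayed past the threshold, as did Zeb2, Vim and Sox9 in overexpression against knockdown. Sox9 in knockdown against control lost its call in 8, among them limma-voom (adjusted p = 0.0556), no filter on low counts (0.0524), a fit of the 2 lines compared (0.0542) and transcript length as an offset (0.107). Nes gained a call without a filter on low counts in knockdown against control (0.0265) and in overexpression against knockdown (0.00294), there also with DESeq2 (0.0281). Snai2 in overexpression against knockdown had -0.08 without overexpression replicate 1, within a range of -0.08 to 0.26 over fits leaving out 1 library. Sox5 changed to 0.51 and 0.43 in overexpression and knockdown against control with the length offset. With that offset the genes called came to 1575, 2794 and 1423 against 3172, 4619 and 2887 in overexpression against control, knockdown against control and overexpression against knockdown, beside a biological coefficient of variation of 0.165 in place of 0.097, and the cause was not tested. It also ended the overexpression calls of Fosl2 (0.074), Sox6 (0.148), Tgfbr2 (0.055) and Wwp2 (0.0846). The same held with overexpression for Suz12 (edgeR adjusted p = 0.0997), Sox11 (0.0641), Col1a1 (0.132), Fbxl14 (0.146), Lmnb1 (0.097) and Macf1 (0.0992). With knockdown it held for Foxc1 (edgeR adjusted p = 0.0737) and Ccn1 (0.108). Leaving out 1 library gave 2440 to 3297, 3885 to 4555 and 2241 to 2867 genes. Members called lower ranged over 4 to 4, 2 to 3 and 2 to 3 in these fits.

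Same-numbered replicates did not deviate together (r from -0.093 to 0.127 over 9 pairs, 1 of them over 0.1), so the numbers were not taken to pair the libraries. With a replicate block the genes called were 2957, 4423 and 2712, and no call of a member changed.

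Zeb1, Snai1 and Twist1 had too few counts to test at this depth, and Snai2 was tested with wide errors. Whether depth or absence of the transcripts accounts for the low counts was not tested.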
